A study of Mus musculus with 8 samples.

Results

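The centromere-proximal 5 Mb are the first 5 Mb of assembled sequence of every mouse autosome, from position 3 Mb to 8 Mb of chromosomes 1 to 19 in the build GRCm38. Members were the CpG calls at these positions, leaving out 10 kb windows that held 200 or more calls over the 8 libraries (called high-copy windows here). They came to 59846 of the 1849087 CpG calls of the series, or 3.36% of the autosomal calls that remained after the same filter. These calls were spread over 19 intervals of 94.92 Mb in all, against 2308.57 Mb in the rest of the same chromosomes. Before the filter the intervals held 66216 calls, of which 8 high-copy windows held 6370. No library had a call before 3 Mb on these chromosomes, where the build holds no assembled sequence. Calls could therefore not be placed on the satellite arrays there. Whether reads of these arrays were placed further in, such as in the high-copy windows left out, was not tested.

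5-Hydroxymethylcytosine (5hmC) was measured at single CpGs by APOBEC-coupled epigenetic sequencing (ACE-seq) in 1 line of mouse embryonic stem cells. All 8 libraries came from TET-TKO cells, in which TET1, TET2 and TET3 are inactivated, carrying a PiggyBac vector that expresses the catalytic domain of mouse TET3, linked to mCherry, when doxycycline is present. The medium of all cells was supplemented with 50 µg/ml ascorbate. Doxycycline was given at 1 µM. There were 3 libraries without it (0 h: A, B and C), 2 with 6 h of it (A and B) and 3 with 12 h (A, B and C). The enzyme is the catalytic domain alone, so the libraries say nothing of full-length TET3, and the labels do not say whether replicates were separate cultures. The p-values therefore measure only the spread between these libraries, which may be technical. Libraries held 75023 to 485941 calls. Each held reads of the same 3 run numbers, which were taken from the read names and are called sequencing runs here.

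Mouse chromosomes carry their centromere at one end, flanked by arrays of satellite repeats that form constitutive heterochromatin, and the assembled sequence begins next to them. TET enzymes oxidise 5-methylcytosine to 5hmC, so a CpG can gain 5hmC only where it was methylated. CpG-dense promoters are mostly unmethylated, while CpGs between genes and in gene bodies are mostly methylated in embryonic stem cells. In ACE-seq 5hmC is glucosylated and thereby protected from the deaminase, and the level of a region is the percentage of its CpG calls that stayed undeaminated, which is 5hmC plus the background of the assay.

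The level inside the proximal 5 Mb was lowest where CpGs were densest, and 5 promoters are printed to show the contrast. Each is 300 bases around a start of the gene, most of them upstream, and that of Rbfox1 lies at a start inside the gene body. They come from RefSeq (GRCm38.p6) and are written 5′ to 3′ on the strand of the gene, with CpGs in capitals. These 5 were chosen after their values were seen. Prkaa1 (chr15:5143611-5143910, plus strand, 52 CpGs) and Dnaja3 (chr16:4683820-4684119, plus strand, 23 CpGs) had the most calls at 12 h among proximal promoters with over 20 CpGs. Zc3h12d (chr10:7832220-7832519, plus strand, 10 CpGs) and Rbfox1 (chr16:7069585-7069884, plus strand, 7 CpGs) had the most among those with at most 10. Tac1 (chr6:7554811-7555110, plus strand, 22 CpGs) had the most undeaminated calls among the CpG-dense ones with at least 10 calls.
Prkaa1: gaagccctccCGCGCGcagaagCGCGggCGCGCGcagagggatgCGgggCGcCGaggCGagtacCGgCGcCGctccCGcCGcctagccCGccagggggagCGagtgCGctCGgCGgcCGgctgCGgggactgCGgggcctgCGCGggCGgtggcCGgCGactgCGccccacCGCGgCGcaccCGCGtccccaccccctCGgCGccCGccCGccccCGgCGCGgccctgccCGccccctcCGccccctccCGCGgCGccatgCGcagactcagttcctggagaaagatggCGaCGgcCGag
Dnaja3: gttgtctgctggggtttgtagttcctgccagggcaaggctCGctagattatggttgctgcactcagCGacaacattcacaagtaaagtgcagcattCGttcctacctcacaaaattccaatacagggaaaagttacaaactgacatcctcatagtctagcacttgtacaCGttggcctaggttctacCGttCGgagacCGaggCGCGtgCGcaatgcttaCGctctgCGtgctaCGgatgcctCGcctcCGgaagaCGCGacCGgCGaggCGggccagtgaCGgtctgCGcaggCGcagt
Zc3h12d: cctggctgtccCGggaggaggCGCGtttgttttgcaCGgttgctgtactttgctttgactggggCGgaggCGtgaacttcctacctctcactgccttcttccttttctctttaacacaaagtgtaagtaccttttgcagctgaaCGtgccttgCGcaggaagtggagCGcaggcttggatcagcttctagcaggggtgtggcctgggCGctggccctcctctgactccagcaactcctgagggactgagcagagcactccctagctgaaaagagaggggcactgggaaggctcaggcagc
Rbfox1: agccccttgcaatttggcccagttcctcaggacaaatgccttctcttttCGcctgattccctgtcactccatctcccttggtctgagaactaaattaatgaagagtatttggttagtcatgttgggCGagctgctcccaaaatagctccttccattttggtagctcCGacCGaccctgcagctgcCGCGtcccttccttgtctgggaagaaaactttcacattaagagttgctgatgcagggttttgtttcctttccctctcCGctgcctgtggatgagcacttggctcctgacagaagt
Tac1: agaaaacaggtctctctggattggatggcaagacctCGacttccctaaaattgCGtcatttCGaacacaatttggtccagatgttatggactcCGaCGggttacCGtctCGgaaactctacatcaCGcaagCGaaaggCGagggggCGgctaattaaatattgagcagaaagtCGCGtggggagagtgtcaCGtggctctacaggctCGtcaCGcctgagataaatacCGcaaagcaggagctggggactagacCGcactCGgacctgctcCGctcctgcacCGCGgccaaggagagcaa

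At 12 h, 0 of 26 calls were undeaminated in the promoter of Prkaa1, which encodes a catalytic subunit of the energy sensor AMPK. A count of 0 there allows a share of up to 11.5%. In the promoter of Dnaja3, a mitochondrial co-chaperone, it was 0 of 23 calls, which allows up to 13.04%. The CpG-poor promoter of Rbfox1, a splicing regulator, had 3 of 10 undeaminated calls and that of Zc3h12d, a zinc finger protein, had 2 of 11. The promoter of Tac1, the precursor of substance P, had 4 of 12 undeaminated calls although it holds 22 CpGs. All the 12 h calls of each of these promoters came from 1 library, so the single promoters carry no replicate check, and calls on 1 read are not independent. Intervals and these limits cover counting error only.

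Over the 1269 RefSeq promoters in the proximal 5 Mb the contrast was plain in 12 h A and B. Promoters with at most 10 CpGs had a level at 12 h of 33.9% in A, 26.0% in B and 11.1% in C, from 150 calls. Promoters with 11 to 20 CpGs had 4.23%, 4.71% and 0% from 221 calls. Promoters with over 20 CpGs had 1.10%, 0.948% and 6.04% from 542 calls. In every 12 h library the CpG-poor promoters lay above both denser classes. In 12 h C the margin over the densest class was the smallest. There the CpG-poor level rests on 2 undeaminated of 18 calls, against 9 of 149 in the densest class, too few to settle their order. Elsewhere on the autosomes the means of the same classes were 24.2% ± 1.90, 6.36% ± 1.68 and 3.16% ± 1.73 (SD, n = 3). The class of 11 to 20 CpGs was lower in the proximal promoters in 3 of 3 libraries (2.98% ± 2.59, SD, n = 3), but on 7 undeaminated calls, and this difference was not tested. Among the 31 proximal promoters with over 20 CpGs and at least 10 calls at 12 h, 24 had no undeaminated call, 5 had 1 and 2 had more (Tac1 and the promoter of the vomeronasal receptor gene Vmn2r29, with 3 of 12). In 12 h C these 2 promoters had 4 of 12 and 3 of 8 undeaminated calls. They gave most of the 9 in the densest class there, so its 6.04% rests mainly on them. Promoters with over 20 CpGs made up 26.2% of those in the proximal 5 Mb and 25.3% of the others, so promoter CpG content was close in both.

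5hmC rose in the proximal 5 Mb with time in doxycycline. Without doxycycline 0.847%, 1.50% and 1.46% of proximal calls were undeaminated in A, B and C. After 6 h it was 7.44% in A and 6.11% in B. After 12 h it was 21.5%, 22.7% and 26.6% in A, B and C. No library of one time overlapped those of another, and the group means were 1.27% ± 0.366 (SD, n = 3), 6.78% ± 0.938 (SD, n = 2) and 23.6% ± 2.66 (SD, n = 3). The exact permutation test, 12 h against 0 h, gave p = 0.1 (two-sided, raw; 0.333 after Benjamini-Hochberg adjustment over the 30 exact tests run), the smallest p that groups of this size allow. The gain at 6 h was 24.7% of that at 12 h in the proximal 5 Mb and 23.1% in the rest.

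**Figure D1:**
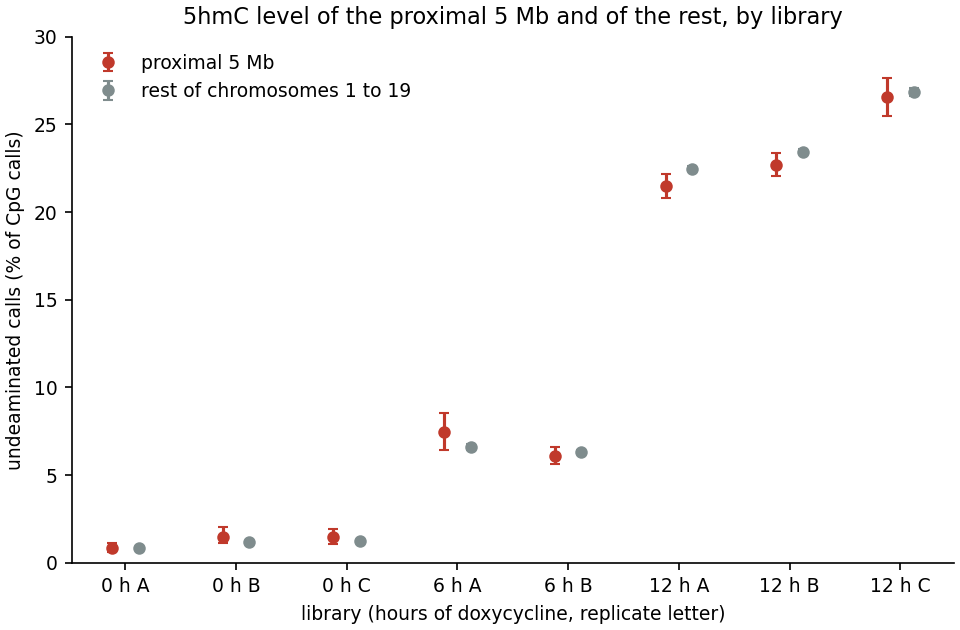
Undeaminated calls, in percent of CpG calls, for each of the 8 libraries, in the proximal 5 Mb (red) and in the rest of chromosomes 1 to 19 (grey), with 95% Wilson intervals. The 2 regions rose together, and in the 3 libraries of 12 h the proximal 5 Mb lay below the rest.

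Against the rest of the same chromosomes the proximal 5 Mb stayed slightly behind at 12 h. The rest had 22.5%, 23.5% and 26.8% in 12 h A, B and C, so the proximal level was lower in 3 of 3 libraries. To weigh chromosomes alike, the proximal level was set against the level expected if each chromosome's proximal calls had the level of the rest of that chromosome. Observed minus expected was -1.06, -0.773 and -0.330 percentage points in 12 h A, B and C. At 0 h it was -0.0321, 0.346 and 0.218, and at 6 h it was 0.881 and -0.198. The 12 h libraries all lay below the 0 h and the 6 h libraries, and the 0 h and 6 h libraries overlapped. The mean difference between 12 h and 0 h was -0.900 percentage points (exact permutation p = 0.1, the smallest possible, adjusted p = 0.333).

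Reads with many CpGs have low levels, so the expectation was also computed within 7 classes of CpG calls per read (1, 2, 3, 4 to 5, 6 to 7, 8 to 10, 11 or more) on the same chromosome. Observed minus expected was then -0.910, -0.805 and 0.0307 at 12 h in A, B and C. At 0 h it was -0.0309, 0.322 and 0.140, and at 6 h it was 0.914 and -0.159. Library 12 h C moved to the level of its rest and overlapped the 0 h libraries, while 12 h A and B stayed below all others. The difference of 12 h from 0 h was -0.705 percentage points (exact permutation p = 0.2, adjusted p = 0.462).

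**Figure D2:**
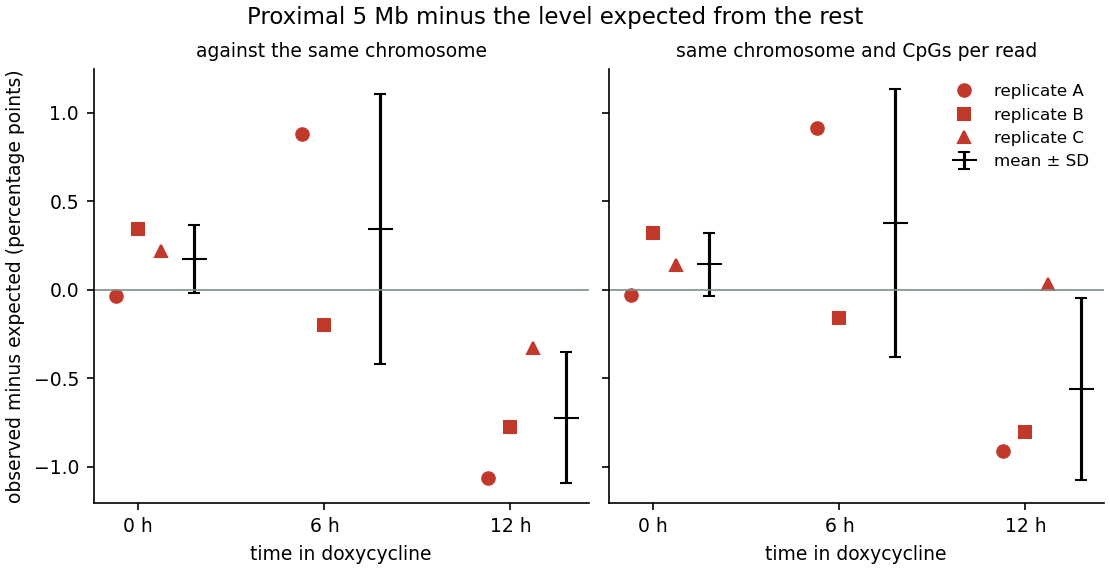
Proximal level minus the level expected from the rest of the same chromosome (left) and from the same chromosome and class of CpG calls per read (right), in percentage points, by time in doxycycline. Symbols are replicates, black bars the mean ± SD; the 3 libraries of 12 h lie between -1.06 and -0.330 on the left and between -0.910 and 0.0307 on the right.

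All autosomes were cut into 5 Mb bins by distance from the first assembled base, pooled over chromosomes, with everything from 58 Mb on as the last of 12 bins, and fitted with limma weighted by calls. From 0 h to 12 h the proximal bin fell behind its expectation by -0.93 ± 0.279 percentage points (SE, adjusted p = 0.0289) on the same chromosome and by -0.80 ± 0.285 (adjusted p = 0.0266) within classes of CpGs per read. It was 1 of 2 of the 12 bins that did so at an adjusted p under 0.05 (16.7%), and 1 of 3 (25%) within classes. The bins are parts of the same chromosomes, so one bin's shortfall enters the expectation of the others, and they are not independent. Limma draws on the spread of all 12 bins, so its p-values rest on more than the 8 libraries. The exact permutation tests over libraries gave p = 0.1 (adjusted p = 0.333) and, within classes, p = 0.2 (adjusted p = 0.462), and did not pass. The proximal bin was not the lowest: the bin of 15 to 20 Mb further in (positions 18000001 to 23000000) changed by -1.69 ± 0.288 and, within classes, by -1.24 ± 0.302. The bin of positions 8000001 to 13000000, next to the proximal one, changed by -0.25 ± 0.321 and, within classes, by -0.56 ± 0.296 (adjusted p = 0.127), and did not pass. The bin beyond 58 Mb rose above its expectation by 0.52 ± 0.103. Between 0 h and 6 h the proximal bin differed by -0.10 ± 0.279 (adjusted p = 0.724), and between 6 h and 12 h by -0.83 ± 0.362 (adjusted p = 0.106).

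**Figure D3:**
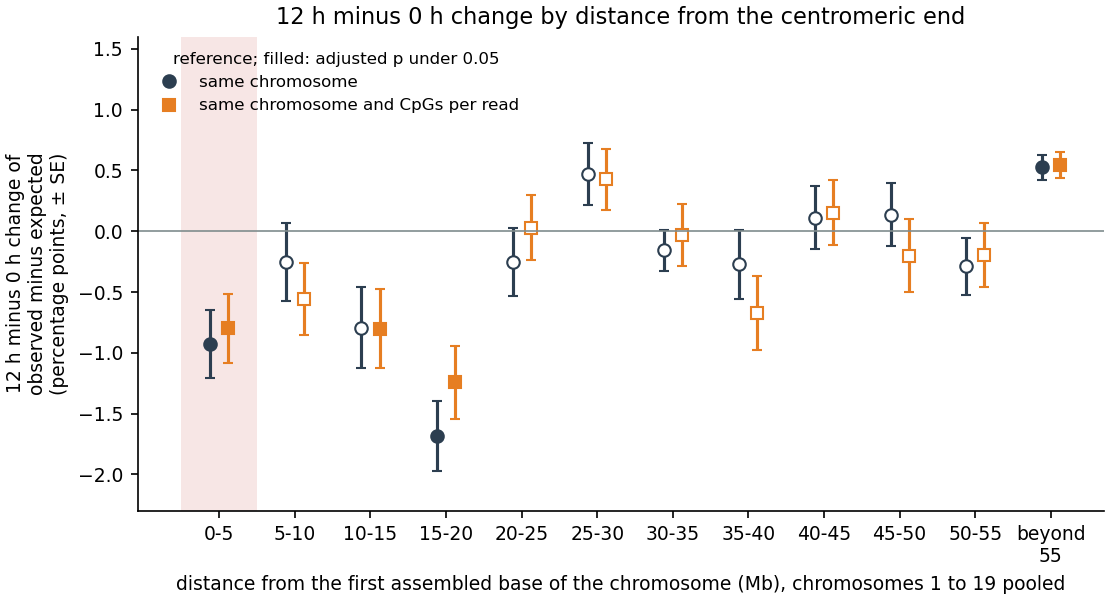
Change from 0 h to 12 h of observed minus expected level, in percentage points ± SE from limma, for 5 Mb bins by distance from the first assembled base over chromosomes 1 to 19. Circles use the same chromosome as reference, squares also the class of CpG calls per read; filled symbols have an adjusted p under 0.05, and the proximal bin (shaded) is at -0.93 and -0.80, above the bin at 15 to 20 Mb.

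The shortfall kept its sign whichever library was left out, but the call did not hold without 3 of them. Without 12 h A the change was -0.76 on the same chromosome (limma adjusted p = 0.227) and without 12 h B -0.97 (adjusted p = 0.115), and neither passed. Without 0 h B it was -0.86 (adjusted p = 0.0541). On a logit scale, which compares relative differences, it was -0.16 (adjusted p = 0.335). Within each of the 3 sequencing runs the change was below 0, at -0.50, -0.66 and -1.32 percentage points, and none passed (adjusted p = 0.765, 0.277 and 0.0623).

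The 19 proximal windows were also tested singly, among the 487 autosomal 5 Mb windows in which no library had fewer than 20 calls. None of the 19 passed an adjusted p under 0.05 in limma or in a quasi-binomial test of the counts, where 1 of 487 windows (0.205%) passed in limma and 0 of 487 (0%) in limma within classes. At an unadjusted p under 0.05 there were 4 proximal windows, all with a change below 0, where 7.19% of all windows passed with such a change. Within classes there were 2, where it was 6.78% of all. The 4 fell to 2 without 12 h A, and to 1 without 12 h B, on the logit scale or in the quasi-binomial test. The change from 0 h to 12 h was below 0 in 13 of 19 proximal windows, where it was so in 260 of 487. Within classes it was below 0 in 16 of 19 and in 273 of 487. These majorities depended on the scale: on the logit scale 8 of 19 proximal windows lay below 0 and in the quasi-binomial test 10 of 19, with and without classes. The median limma change was -1.13 in the proximal windows and -0.18 over all, and within classes -1.06 and -0.25. The standard errors of the proximal windows ran from 0.827 to 2.16, so a shift of the size of the pooled one could not be seen in a single window.

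Chromosome 14 had the lowest of all 487 changes, at -7.19 ± 2.16 (SE, limma adjusted p = 0.141). Without 12 h B it was -4.29 (adjusted p = 0.590), and within classes, at -6.09 ± 2.17, it was the second lowest. Its proximal level at 12 h was 18.3%, 14.5% and 25.3% in A, B and C, against 22.8%, 25.0% and 27.5% in the rest of the chromosome. It was the thinnest window, with 1033 calls and 34 in the smallest library, and of its 625 calls at 12 h 110 were undeaminated. Of the 80 protein-coding genes that overlap it 71 have names of predicted genes (Gm). How reads with several matching places were treated is not given in the sources used here, and its part in this value was not tested. By single Mb its pooled 12 h level ran from 10.3% (6.37 to 16.4%, Wilson, 145 calls at positions 6000001 to 7000000) to 21.3% (16.6 to 26.9%, 244 calls at 7000001 to 8000000). Without chromosome 14 the pooled change was -0.82 ± 0.314 (adjusted p = 0.0552).

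The other 3 low windows were those of chromosomes 5, 7 and 8, with changes of -3.34 ± 1.35, -3.45 ± 1.26 and -3.42 ± 1.47 (SE, limma adjusted p = 0.230, 0.209 and 0.280). Without 12 h B the change was -5.25 on chromosome 7 and -1.93 on chromosome 8, and with 1 call per read it was -1.61 on chromosome 8. On chromosome 7 the proximal level at 12 h was 18.5%, 21.5% and 19.1% in A, B and C, against 22.4%, 22.9% and 26.5% in the rest. This window holds 122 protein-coding genes, and 20.2% of its calls lay within 1 kb of a gene end, the second highest share of the 19. The first Mb of it had 14.6% (11.8 to 18.0%, 492 calls). On chromosome 5 the proximal level was 18.2%, 18.8% and 24.2% against 22.6%, 23.5% and 26.5%, and all 5 single Mb were between 17.3% and 20.3%. This window also had 1 undeaminated call of 436 at 0 h, and on the logit scale the sign of its change turned (0.91 ± 0.551). On chromosome 8 the level was 21.9%, 19.3% and 26.5% against 22.9%, 24.2% and 28.2%, with 15.4% (12.3 to 19.3%, 408 calls) in its second Mb and 25.3% (21.8 to 29.1%, 542 calls) in its first. All 3 libraries of 12 h lay below the rest of the chromosome in these 4 windows and in those of chromosomes 11 and 12. How many of all 487 windows did so in 3 of 3 libraries was not counted. By the limma estimate at 12 h, 13 of 19 proximal windows and 269 of 487 windows (55.2%) lay below their rest.

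Some proximal windows were not low. Chromosome 2 had 24.8%, 23.7% and 31.2% at 12 h, above its rest in 3 of 3 libraries, with a change of 1.39 ± 1.29. Chromosome 19, the window with the most calls (8414), the most protein-coding genes (183) and the highest share of calls near gene ends (23.2%), changed by 0.41 ± 0.827 and within classes by 1.44 ± 0.855. The other 13 windows had mean levels at 12 h from 22.7% ± 2.31 on chromosome 12 to 25.2% ± 1.55 on chromosome 15 (SD, n = 3). Their changes ran from -1.93 ± 1.98 on chromosome 18 to 0.42 ± 1.62 on chromosome 9, and none passed the unadjusted threshold. Chromosome 18 was not below its rest at 12 h, with 23.1%, 24.1% and 26.6% in A, B and C against 21.2%, 23.4% and 26.2%. Its mean excess over the rest was larger at 0 h (3.02 percentage points) than at 12 h (1.01), which made its change negative. The 0 h excess was largest in B, at 7.92% against 1.07%. Over the 19 windows the difference from the rest at 12 h and the share of calls near gene ends had Pearson's r = -0.41 and Spearman's rho = -0.45, given as a description since the windows share libraries. With CpGs per read r was -0.25, and 0.01 once the classes were taken into account.

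**Figure D4:**
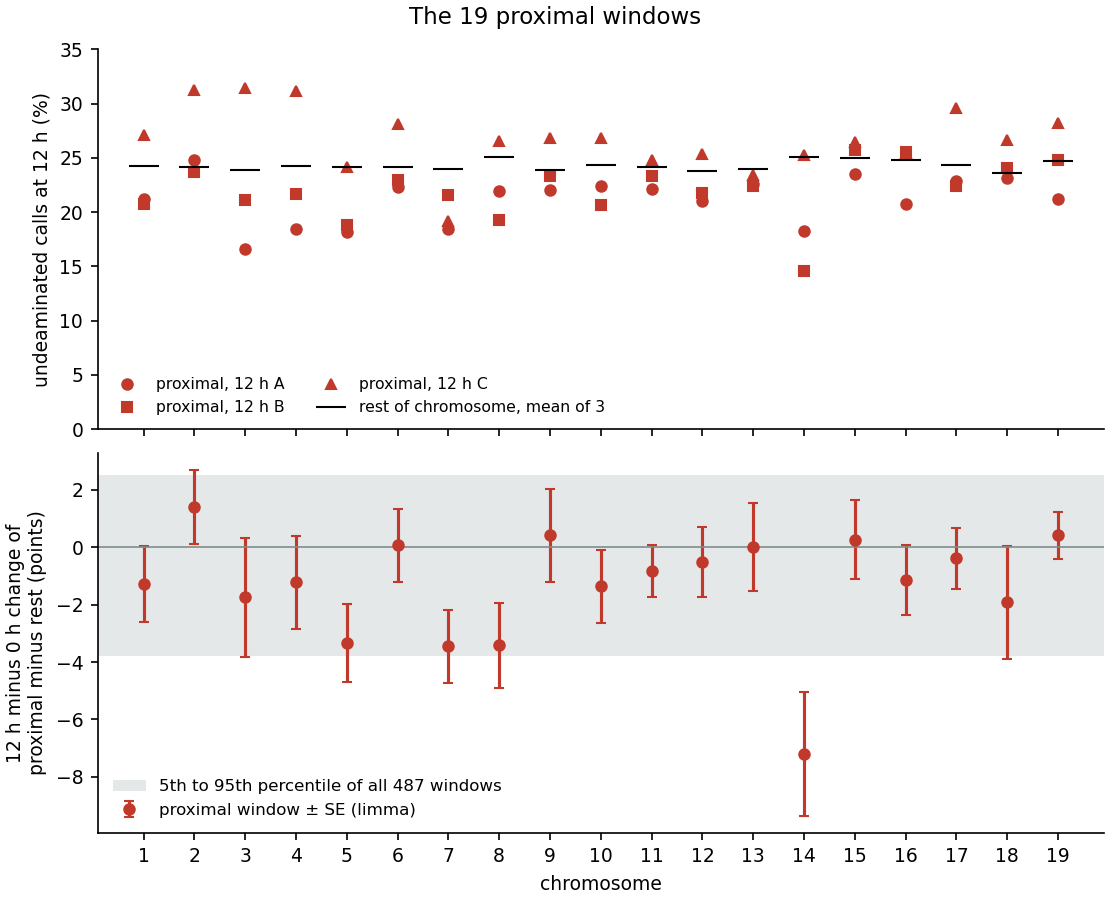
Top: undeaminated calls at 12 h, in percent, in the proximal window of each autosome (symbols are the 3 libraries) and the mean of the rest of the chromosome (bars). Bottom: limma change from 0 h to 12 h of proximal minus rest, in percentage points ± SE, over the range from the 5th to the 95th percentile of all 487 windows (grey); chromosome 14 at -7.19 is the only one outside it.

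The level changed little up to 5 CpGs on a read and was lower on reads with more, inside the proximal 5 Mb and in the rest. Proximal CpGs alone on their read had 22.5%, 23.8% and 27.8% at 12 h in A, B and C, where 23.4%, 24.2% and 27.9% were expected. Reads with 2 CpGs had a mean of 25.6% ± 1.53 (SD, n = 3) for 26.3% expected, and reads with 3 had 25.9% ± 4.42 for 26.8%. Reads with 4 to 5 had 26.1% ± 3.76 for 26.3%, the highest proximal mean. Above that the mean was 22.8% ± 1.71 at 6 to 7 CpGs, 17.4% ± 2.23 at 8 to 10 and 6.16% ± 4.58 at 11 or more, where 24.3%, 17.9% and 5.57% were expected. None of the 7 proximal classes passed an adjusted p under 0.05 for the change from 0 h to 12 h, where 1 of 84 combinations of bin and class did (1.19%). At an unadjusted p under 0.05 it was 0 of 7, where 5 of 84 (5.95%) passed. All 7 limma estimates were below 0, but 4 of 7 were so on the logit scale or without 12 h A and 5 of 7 without 12 h B or 0 h B. They ran from -1.63 ± 0.918 at 3 CpGs per read to -0.07 ± 1.18 at 6 to 7, all within 2 standard errors of 0. The proximal 5 Mb held somewhat more of its calls on lone CpGs than the rest (22.5% against 21.0%) and on reads with 8 to 10 (5.44% against 4.39%).

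**Figure D5:**
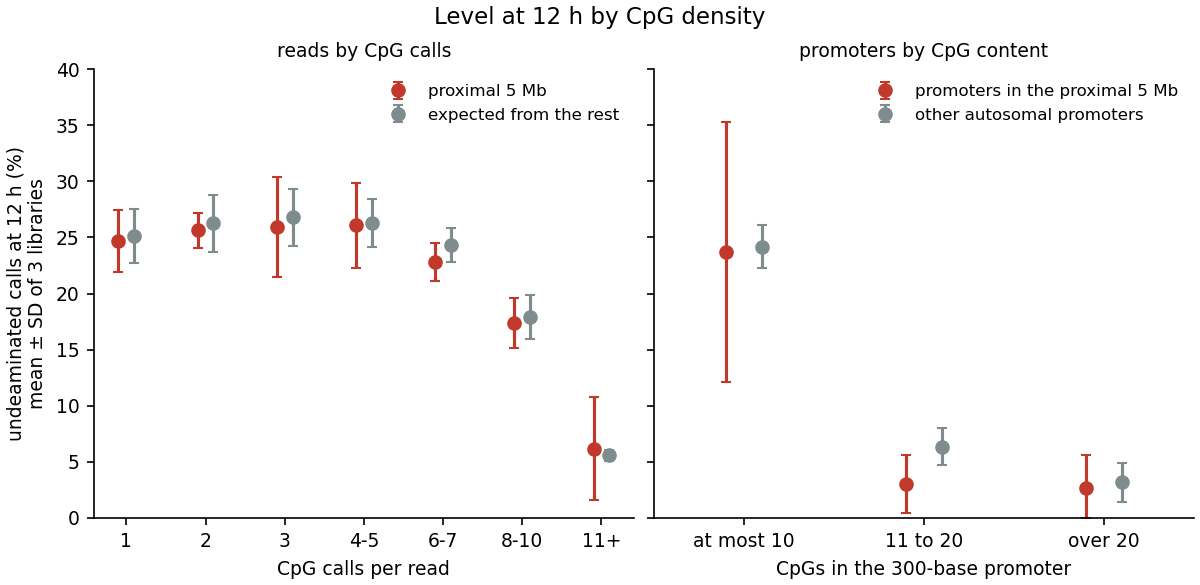
Undeaminated calls at 12 h, in percent, mean ± SD of 3 libraries, by number of CpG calls on the read (left; grey is the level expected from the rest of the chromosomes) and by CpGs in the 300-base promoter (right; grey is all other autosomal promoters). Lower bars are cut at 0; on the left the proximal mean lies between 24.7% and 26.1% up to 5 CpGs and at 6.16% at 11 or more, and on the right it is highest for promoters with at most 10 CpGs.

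On proximal reads with exactly 2 CpGs both were undeaminated in 9.20%, 10.5% and 11.4% of reads at 12 h in A, B and C, and in 9.36%, 10.0% and 12.3% elsewhere. Among reads with any undeaminated call both were so in 25.3% ± 1.52 (SD, n = 3) of proximal reads and 25.3% ± 1.57 elsewhere. Both differences were smaller than the spread between the 12 h libraries.

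Gene bodies were compared without classes of CpGs per read, each part with the same part of the rest of the chromosome. Outside protein-coding gene bodies the shortfall by this measure was present in 3 of 3 libraries. Observed minus expected there was -1.07, -1.40 and -1.62 percentage points at 12 h in A, B and C, and 0.105, 0.140 and 0.178 at 0 h (exact permutation p = 0.1, the smallest possible, adjusted p = 0.333). Inside gene bodies it was -1.03, -0.179 and 0.815 at 12 h, and -0.150, 0.564 and 0.245 at 0 h (exact permutation p = 0.6, adjusted p = 0.750), and the groups overlapped. The difference between outside and inside was itself -0.0335, -1.22 and -2.43 at 12 h. It did not separate from 0 h (exact permutation p = 0.3, adjusted p = 0.529), so the data do not show that the 2 compartments differ. Proximal calls lay in gene bodies somewhat less often than others, in 52.5 to 53.3% at 12 h against 55.3 to 55.5%.

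Near gene ends (1 kb to either side of the start or end of a protein-coding gene) the proximal level was low, as in the rest. At 12 h it was 10.8%, 13.2% and 13.7% in A, B and C, where 10.7%, 12.2% and 14.2% were expected. At 6 h it was 8.71% in A and 3.87% in B, where 3.74% and 3.33% were expected, and 6 h A rests on 23 of 264 calls. Away from gene ends the proximal level was 22.9%, 24.0% and 28.4% at 12 h, where 24.0%, 24.9% and 28.6% were expected. These expected levels too were computed without classes of CpGs per read. Gene ends took up 12.0% ± 0.375 (SD, n = 3) of the proximal calls at 12 h.

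Protein-coding genes that overlap the proximal 5 Mb numbered 869, or 4.21% of the 20661 on the autosomes in a RefSeq gene table of GRCm38.p6, which was also used for gene ends. Only 5 had at least 10 calls in every library and could be tested, and none passed at 12 h against 0 h, where 2 of 338 genes (0.592%) passed an adjusted p under 0.05 and 41 (12.1%) an unadjusted one. None of the 5 passed the unadjusted threshold. Rbfox1 on chromosome 16 (5884793 to 7412480), a regulator of splicing and one of the longest of these genes, had 16.4%, 22.3% and 24.2% at 12 h in A, B and C. From 0 h to 12 h it changed by -5.31 ± 3.61 percentage points relative to its library (limma adjusted p = 0.537), and by -3.06 without 0 h B and -8.25 without 0 h A. Arid1b on chromosome 17 (4994297 to 5347656), a subunit of the BAF chromatin remodeller, had 26.2%, 25.6% and 40%, with a change of 4.93 ± 2.43 (adjusted p = 0.427). These 2 genes lay on opposite sides of their libraries, each within the error of the test. Macrod1 on chromosome 19 (7056728 to 7198062), an ADP-ribosylhydrolase, changed by 1.48 ± 3.32, and without 12 h B its sign turned. Frmd4a on chromosome 2 (4017650 to 4614043), a scaffold protein of cell polarity, changed by -2.14 ± 3.11, and by -0.46 without 0 h C and -3.86 without 0 h A. Ppp1r9a on chromosome 6 (4902872 to 5165661), which encodes the actin-binding protein neurabin, changed by 1.06 ± 5.97, and its sign turned without 12 h B and without gene ends.

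The other genes with the most calls were long as well and rose to like levels. Pooled over 12 h, 66 of 233 calls were undeaminated (28.3%, Wilson interval 22.9 to 34.4%) in Camk1d, a calcium-dependent kinase. In Klhl29, a Kelch-like protein, it was 56 of 230 (24.3%). In Zdhhc14, a palmitoyltransferase, it was 48 of 211 (22.7%). Cdk14, a cyclin-dependent kinase, had 49 of 195 (25.1%) and Celf2, an RNA-binding protein, had 50 of 216 (23.1%). With the 3 libraries of 12 h weighted equally, the 10 genes ran from 21.0% ± 4.06 (SD, n = 3) in Rbfox1 to 29.2% ± 6.06 in Camk1d and 30.6% ± 8.15 in Arid1b. In Arid1b, Macrod1, Ppp1r9a, Klhl29, Zdhhc14, Cdk14 and Celf2 no call of 46 to 73 was undeaminated at 0 h.

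Gene families were counted by symbol prefix. Bodies of predicted genes (Gm, 913 in the proximal 5 Mb) had 22.6% ± 3.11 at 12 h (SD, n = 3) against 24.8% ± 2.63 for Gm genes elsewhere, and were lower in 3 of 3 libraries. Zinc finger protein genes (Zfp, 23) had 18.5% ± 5.18 against 22.4% ± 3.59. By library it was 20.1% against 20.7% in A, 22.7% against 20.0% in B and 12.7% against 26.5% in C, so the lower mean rests on 12 h C. Vomeronasal receptor genes (Vmn, 48, of which 25 are pseudogenes) had 10 undeaminated of 30 calls, and olfactory receptor genes (Olfr, 15) had 2 of 15. The last 2 counts are too small to compare with the 17.2% and 22.3% pooled over these families elsewhere. None of these family differences was tested.

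The proximal 5 Mb held fewer calls per Mb than the rest. The ratio was 0.863, 0.848 and 0.776 at 0 h, 0.834 and 0.870 at 6 h, and 0.839, 0.841 and 0.864 at 12 h, below 1 in 8 of 8 libraries. It did not move with time (12 h against 0 h, exact permutation p = 0.8, adjusted p = 0.828). The ratio uses length alone, with no correction for the number of CpGs, assembly gaps or how well reads can be placed. Of the 18 high-copy windows left out on the autosomes, 8 were proximal. Leaving them out lowered the proximal share of autosomal calls, which was 3.35% ± 0.114 (SD, n = 8) with the filter and 3.64% without it. CpG calls per read were 2.16 ± 0.0263 at 12 h against 2.19 ± 0.00927 in the rest (SD, n = 3).

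The other end of the same chromosomes was compared in the same way. The distal 5 Mb had 22.7%, 23.6% and 26.8% at 12 h in A, B and C, from 94185 calls over all libraries. Within classes of CpGs per read the proximal minus the distal end was -1.53, -0.995 and -0.0991 percentage points at 12 h, and -0.0838, -0.0868 and -0.105 at 0 h. At 6 h it was 1.19 in A and -0.272 in B. The distal end itself lay above its within-class expectation at 12 h, by 0.616, 0.190 and 0.130 in A, B and C. At 0 h it lay above by 0.0528, 0.409 and 0.245. The difference between the ends at 12 h is therefore not a proximal shortfall alone, and in 12 h C the proximal end was at 0.0307. By this measure, which compares the observed minus expected level of each end, the proximal end was the lower one in 7 of 8 libraries. By level it was the higher one in 0 h C (1.46% against 1.39%) and in 6 h A (7.44% against 6.32%). The change of the within-class difference from 0 h to 12 h had an exact permutation p of 0.2 (adjusted p = 0.462), and 12 h C lay among the 0 h libraries.

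The levels on both sides of the inner boundary were close. The last Mb inside it (7000001 to 8000000) had 23.8% ± 3.29 at 12 h and the first Mb outside (8000001 to 9000000) had 25.1% ± 4.32 (SD, n = 3). Within each library the Mb outside was the higher one, at 21.9% against 21.2% in A, 23.4% against 22.6% in B and 30.02% against 27.5% in C, and this was not tested. The 5 Mb inside ran from 23.1% ± 3.73 in the first to 24.6% ± 3.81 in the third, less than their spread. At 0 h the first Mb had 1.08%, 2.82% and 2.08% in A, B and C, and its mean of 1.99% ± 0.875 was the highest of the first 10 Mb. Of the 0 h libraries only B had its highest level there. At positions 12000001 to 13000000 it was 1.64% in 0 h A and 2.40% in 0 h C. Among windows just below the minimum of 200 calls, positions 3200001 to 3210000 of chromosome 6 held 194 calls with 7 of 128 undeaminated at 12 h, and positions 3180001 to 3190000 of chromosome 11 held 116 with 15 of 76. Just above it, positions 5860001 to 5870000 of chromosome 3 held 330 calls with 7 of 203 undeaminated.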

How the data were processed

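CpG calls of 8 libraries were used. Per the file headers, the authors deposited Bismark methylation extractor tables with 1 call letter (undeaminated or deaminated) for each CpG on each read. GRCm38, Bismark 0.22.3 and Trim Galore are listed in the submitters' processing notes. Settings for trimming, duplicates and reads with several matches were not stated. Groups and replicate letters come from the sample titles.

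Levels are undeaminated calls in percent of calls. Expected levels came from the rest of the same chromosome, raw or within 7 classes of CpG calls per read. For gene bodies and gene ends they were raw. Observed minus expected was fitted with limma 3.58.1 in R 4.3.3 over all 8 libraries, with 3 groups as 1 factor, weights by calls over binomial variance, Benjamini-Hochberg adjustment over each whole table (12 bins, 84 combinations of bin and class, 487 windows, 338 genes) and a threshold of 0.05. Genes were set against the library level. Adjusted p-values are from limma unless the exact permutation test is named. Exact tests were two-sided over libraries and could not go below 0.1. The fits were tested on simulated data. Single-library intervals are Wilson (95%).

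The rule for names took the 19 windows, given singly or by range, and the 10 genes with the most calls, those with 10 calls in every library first. Members, lists and tests were chosen with earlier results of these data known. Promoters, gene bodies and runs were added after seeing the data.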

Additional observations from a re-analysis of the deposited data

Results flagged for a closer look

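Signal appeared in data that the comparisons above do not use. The 8 high-copy windows left out of the proximal 5 Mb, on chromosomes 3, 9, 11 and 12, rose from 1.71% ± 1.05 (SD, n = 3) at 0 h to 22.2%, 22.9% and 29.9% in 12 h A, B and C, a mean of 25.0% from 3902 calls. The stretch from 3 to 8 Mb of the X chromosome had 24.7% of 554 calls undeaminated at 12 h (Wilson interval 21.3 to 28.5%) and 1 of 199 at 0 h. Neither difference was tested.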

How the results depend on the processing

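The change of the proximal 5 Mb from 0 h to 12 h was below 0 in all 42 alternatives on the same chromosome and in all 43 within classes of CpGs per read, but in 16 and 19 of them it no longer passed. With no high-copy window left out it was -0.702 (limma adjusted p = 0.0601) and, within classes, -0.764 (0.0592). With 1 call per read it was -0.855 (0.0935) and -0.769 (0.150), without weights -0.900 (0.0583) and -0.705 (0.141), on the logit scale -0.159 (0.335) and -0.128 (0.420), and in the 3 runs, chosen after seeing the data, -0.496, -0.659 and -1.32, and -0.392, -0.436 and -1.21. Within classes it was -0.743 for the first 2 Mb (0.245) and -0.786 with 11 classes (0.0524). Leaving out a library gave -1.10 to -0.760 (adjusted p 0.0064 to 0.227) and, within classes, -0.944 to -0.664 (0.0105 to 0.318), and the call was lost without 0 h B, 12 h A or 12 h B. Leaving out a chromosome gave -1.15 to -0.764 and -1.16 to -0.678, and the call was lost without 5, 7, 8, 11, 12 or 14, and within classes without 1, 5, 7, 8, 10, 11 or 14. The cause was not tested. Whether the letters pair libraries could not be decided, since correlations of window deviations between 0 h and 12 h were all small. Same-letter ones were -0.0147, 0.0652 and 0.0947 over 487 windows, the highest of their library for B and C but not for A. With the replicate block the change was -0.947 and -0.809 (adjusted p = 0.0222 and 0.0131), and 3 windows, and 2 within classes, were called in place of 1 and 0, and 2 in place of 1 combination of bin and class, none of them proximal. The number of proximal windows, classes and genes called stayed 0 under every alternative run. The chromosome 5 window turned to 0.908 on the logit scale and 1.33 in the quasi-binomial test. Macrod1 ran from -3.09 without 12 h B to 6.54 without 12 h A. Ppp1r9a ran from -1.40 without 12 h B to 2.98 without 12 h C, and was -0.472 without gene ends. The mean share of calls in the proximal 5 Mb was 3.52% with high-copy windows left out from 1000 calls and 3.64% with none left out. Depth limits single windows, whose smallest library held 34 to 357 calls.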
